A study of Arabidopsis thaliana with 4 samples.

Results

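The genes described here had much lower signal 100 h than 4 h after nutrient removal in rosette leaves of Arabidopsis thaliana, whether or not the nutrient solution held phosphate. Plants of accession Col-5 were grown on agar and then moved to hydroponics under constant light. They received either a solution without phosphate, with 0.125 mM additional potassium sulphate, or a full nutrient solution with 0.25 mM phosphate. One Affymetrix array was hybridised for each of 4 groups, no phosphate at 100 h, full nutrients at 100 h, no phosphate at 4 h and full nutrients at 4 h. How many plants went into an array is not stated. Title codes begin with P on 3 arrays, the pair without phosphate and the one labelled full nutrients at 100 h, so the solution of this last array is in doubt. The numbers in those codes are also not the labelled hours.

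Members were chosen from the measured values. Intensities under a floor of 7.25 were set to the floor. A probe set was taken when its 100 h intensity was at least 3-fold below its 4 h intensity in each solution and both 4 h arrays were at a level of 22.45 or more. Of 8247 probe sets that are not controls, 178 met these conditions. Removing 14 that belong to named genes or families (WRKY, BGLU and ALDH genes, LTI30, OSM34, chitinase and berberine bridge enzyme genes and others) left 164. Of these, 46 name 1 gene, for 45 genes in all, 3 name several genes and 115 are not listed in the platform annotation used here. The changes with time given below for members are therefore descriptions of the choice, with no test.

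Leaves respond to wounding, handling, water deficit, oxidative stress and microbial contact with overlapping sets of genes. Receptor kinases, ubiquitin ligases and zinc finger repressors relay and limit the signal. Jasmonate, auxin and abscisic acid adjust it. Secreted chitinases, peroxidases and protease inhibitors, detoxifying enzymes and protective proteins carry it out. Phosphate shortage is known for changing phosphate transport, lipid make-up and sugar handling.

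Trimmed mean intensity was 100.2 on each of the 4 arrays. The leaf markers RCA, the activase of Rubisco, and LHCB4.1, a light-harvesting protein, were at 4526.7 or more on every array. They were the 2 of 15 listed leaf markers with a named probe set, while 0 of 11 root markers and 0 of 3 phloem markers had one. Of 4 guard cell markers 1 had one, AT1G22690, at 219.3 at 100 h against 81.2 at 4 h without phosphate and at 96.6 at 100 h against 120.9 at 4 h with full nutrients. Mean scanner background was 69.92 without phosphate and 55.21 with full nutrients at 100 h, and 56.94 without phosphate and 49.74 with full nutrients at 4 h. The 9 probe sets for spike-in control transcripts averaged a log2 ratio of -1.06 ± 0.24 for no phosphate over full nutrients at 100 h, with the SD across the 9, and -0.51 ± 0.12 at 4 h. For 100 h over 4 h they averaged -0.40 ± 0.19 without phosphate and 0.15 ± 0.11 with full nutrients. The 3′ to 5′ signal ratio of GAPDH, a sign of RNA integrity, was 2.12 without phosphate and 4.52 with full nutrients at 100 h, and 2.61 without phosphate and 4.07 with full nutrients at 4 h. The same ratio of ubiquitin differed less between the solutions. It was 2.97 without phosphate and 3.35 with full nutrients at 100 h, and 2.57 without phosphate and 3.09 with full nutrients at 4 h. The part of background, spike-in signal, RNA integrity and the guard cell marker in the results was not tested. Where a gene had several probe sets, their log2 ratios varied with an SD of 0.54 for time without phosphate, 0.48 for time in full nutrients, 0.43 for phosphate at 100 h and 0.38 for phosphate at 4 h, from 91 genes. It covers measurement on an array, not the spread between plants.

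The median intensity of the 164 members was 18.0 at 100 h against 188.3 at 4 h without phosphate, and 34.05 at 100 h against 209.0 at 4 h with full nutrients. The median log2 ratio of 100 h over 4 h was -2.81 without phosphate and -2.30 with full nutrients, where all 3954 probe sets at the level on both 4 h arrays had -0.11 without phosphate and -0.04 with full nutrients. In bulk leaf RNA, fewer cells that express a gene and less of its RNA per cell cannot be told apart. A fall of 3-fold or more was found for 10.3% of probe sets without phosphate, for 6.73% with full nutrients and for 4.5% in both, of those at the level at 4 h. The mirror image, 3-fold or more above 4 h in both solutions with both 100 h arrays at the level, was met by 20 probe sets. Its counterpart is the 178 that fell before any were left out by name. The share of the 20 among probe sets at the level at 100 h was not computed. Falls reached 10-fold in 60 members without phosphate and in 23 with full nutrients, and in both solutions in 15. At 100 h the signal was at or below the floor for 53 members without phosphate and for 20 with full nutrients, so their ratios are bounds.

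**Figure D1:**
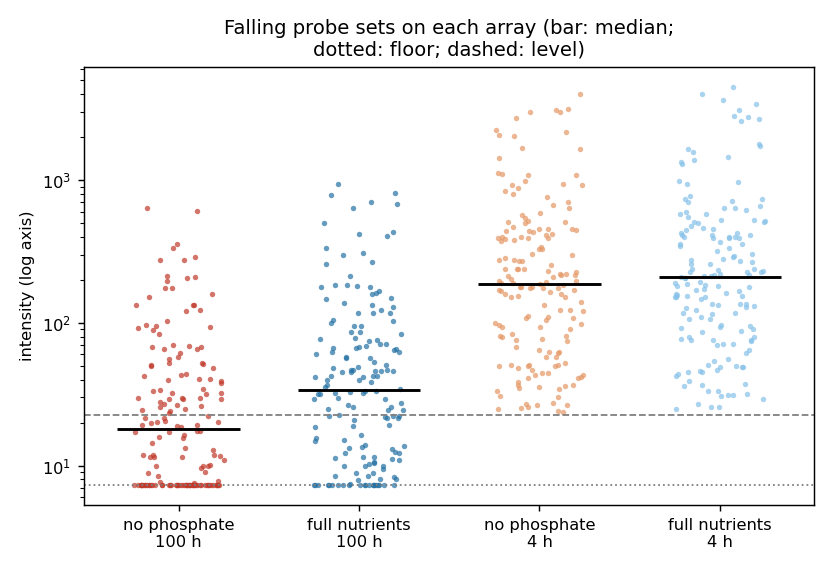
Intensity (log axis) of the 164 falling probe sets on each of the 4 arrays, with 1 point per probe set and a bar at the median. Medians are 18.0 without phosphate and 34.05 with full nutrients at 100 h, and 188.3 without phosphate and 209.0 with full nutrients at 4 h, and values under the floor of 7.25 are drawn at it.

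**Figure D2:**
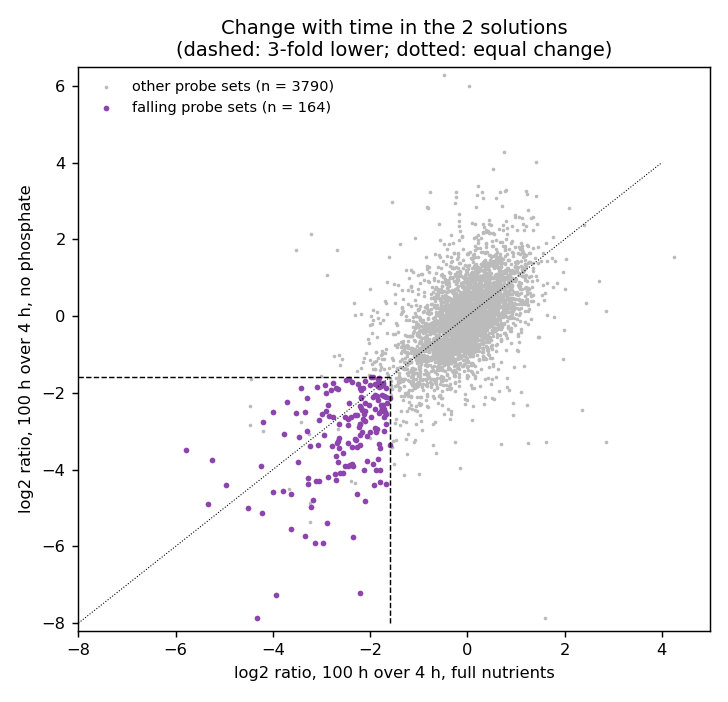
Log2 ratio of 100 h over 4 h with full nutrients (horizontal) and without phosphate (vertical) for the 3954 probe sets at the level on both 4 h arrays. The 164 falling probe sets, in colour, fill the corner below 3-fold in both directions, more of them below the dotted line of equal change than above it, and the grey points in that corner are the 14 left out by name.

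Signalling genes made up 9 of the 46 named probe sets, with a median fall of 4.30-fold without phosphate and 4.57-fold with full nutrients. AT2G23450, which encodes a kinase of the wall-associated type, was at 95.2 at 100 h against 409.3 at 4 h without phosphate, and at 86.0 at 100 h against 393.0 at 4 h with full nutrients. Its falls were nearly equal, at 4.30-fold without phosphate and 4.57-fold with full nutrients. AT4G18950, of the integrin-linked kinase group, was at 10.0 at 100 h against 36.4 at 4 h without phosphate and at 7.4 at 100 h against 79.4 at 4 h with full nutrients. That made the fall 3.64-fold without phosphate and 10.7-fold with full nutrients, the deeper one being with phosphate present. The leucine-rich repeat receptor kinase gene AT5G25930 was below the floor on both 100 h arrays, against 27.6 without phosphate and 50.7 with full nutrients at 4 h. AT4G23050 and AT4G32250, further protein kinase genes, had log2 ratios of -1.67 and -2.31 without phosphate, and of -2.50 and -1.74 with full nutrients, in that order of genes. The small GTP-binding protein gene SGP1 was below the floor at 100 h in both solutions, against 43.0 without phosphate and 35.9 with full nutrients at 4 h.

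Genes that end or redirect signals were in the same group. STZ (ZAT10), a zinc finger repressor induced by many stresses, was at 152.8 at 100 h against 516.0 at 4 h without phosphate, and at 211.6 at 100 h against 704.1 at 4 h with full nutrients. The falls were nearly equal, at 3.38-fold without phosphate and 3.33-fold with full nutrients. A second probe set of STZ, which did not meet the rule, was 6.68-fold lower without phosphate, at 50.2 at 100 h against 335.1 at 4 h, and 2.51-fold lower with full nutrients, at 148.4 at 100 h against 371.8 at 4 h. The 2 probe sets of this gene therefore agree on the direction and differ on how far the fall without phosphate exceeds that with full nutrients. AT2G42360, which encodes a RING-type ubiquitin ligase, had 19.3 at 100 h against 93.3 at 4 h without phosphate and 41.5 at 100 h against 129.8 at 4 h with full nutrients. The C2H2 zinc finger gene AT2G28710 was 8.09-fold lower without phosphate, at 20.2 at 100 h against 163.5 at 4 h, and 4.01-fold lower with full nutrients, at 31.7 at 100 h against 127.2 at 4 h.

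Hormone and glucosinolate genes contributed 4 members. AT2G38240, which encodes an oxygenase that hydroxylates and so inactivates jasmonate, was below the floor on both 100 h arrays, against 80.7 at 4 h without phosphate and 402.3 at 4 h with full nutrients. It was thus at least 11.1-fold lower without phosphate and at least 55.5-fold lower with full nutrients, and the difference between these bounds comes from the 4 h levels, since neither 100 h value was measurable. GH3.3, an enzyme that conjugates auxin to amino acids, was at 10.9 at 100 h against 108.4 at 4 h without phosphate (9.94-fold lower) and at 29.2 at 100 h against 187.3 at 4 h with full nutrients (6.41-fold lower). UGT87A2, a glycosyltransferase known for its effect on flowering time, had 51.2 at 100 h against 327.5 at 4 h without phosphate and 74.7 at 100 h against 410.6 at 4 h with full nutrients. GTR1, a transporter that loads glucosinolates into the phloem, had 97.1 at 100 h against 300.0 at 4 h without phosphate and 94.9 at 100 h against 337.0 at 4 h with full nutrients, near the 3-fold limit in both solutions.

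Secreted defence and cell wall proteins included the brightest named members. AT2G38870, a protease inhibitor of the potato type I family, was at 332.4 at 100 h against 2067 at 4 h without phosphate, and at 701.4 at 100 h against 3994.5 at 4 h with full nutrients. It stayed far above the level on every array, with falls of 6.22-fold without phosphate and 5.70-fold with full nutrients. AT1G03220, an aspartyl protease-like protein, was at 274.7 at 100 h against 1654 at 4 h without phosphate and at 300.2 at 100 h against 1441 at 4 h with full nutrients. A probe set that names this gene together with AT1G03230 was also a member, at 176.3 at 100 h against 1084 at 4 h without phosphate and 184.7 at 100 h against 968.3 at 4 h with full nutrients. The class III peroxidase gene AT5G64120 (PRX71) was below the floor at 100 h against 384.8 at 4 h without phosphate, at least 53.1-fold lower, and at 62.7 at 100 h against 636.7 at 4 h with full nutrients, 10.2-fold lower. The chitinase family gene AT2G43620 showed the same order, below the floor at 100 h against 392.2 at 4 h without phosphate, at least 54.1-fold lower, and at 100.3 at 100 h against 512.4 at 4 h with full nutrients, 5.11-fold lower. A further chitinase family gene, AT4G01700, had nearly the same 100 h level in both solutions, with 21.5 at 100 h against 107.9 at 4 h without phosphate and 22.2 at 100 h against 160.7 at 4 h with full nutrients. The lipid transfer family gene AT4G22470 and the dirigent-like gene AT1G22900 were below the floor at 100 h without phosphate, and at 15.2 and 16.4 with full nutrients.

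Redox, detoxification and methyl transfer genes showed the deepest named fall. AT1G09500, related to cinnamyl alcohol dehydrogenase, was measured by 2 probe sets, both members. One was below the floor at 100 h against 1119 at 4 h without phosphate, and at 50.4 at 100 h against 771.8 at 4 h with full nutrients. The other was below the floor at 100 h against 437.3 at 4 h without phosphate and at 36.5 at 100 h against 320.6 at 4 h with full nutrients. Both agree that the fall was deeper without phosphate, at least 154-fold and at least 60.3-fold on these probe sets, than with full nutrients, 15.3-fold and 8.78-fold. AT2G41380, a methyltransferase-like gene, had 29.4 at 100 h against 438.2 at 4 h without phosphate (14.9-fold lower) and 71.6 at 100 h against 394.4 at 4 h with full nutrients (5.51-fold lower). The cytochrome P450 gene CYP71B6 had 133.0 at 100 h against 453.3 at 4 h without phosphate and 138.1 at 100 h against 656.2 at 4 h with full nutrients, with 100 h levels that were nearly equal. The short-chain dehydrogenase gene AT4G13180 had falls of 4.95-fold without phosphate and 3.43-fold with full nutrients.

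Stress protein and senescence genes were the group whose falls differed most between the solutions, with a median of 13.3-fold without phosphate and 4.03-fold with full nutrients over 8 genes. SAG29, the sugar transporter SWEET15 and a marker of leaf senescence, was below the floor at 100 h against 1085 at 4 h without phosphate, at least 149.7-fold lower. With full nutrients it was at 38.6 at 100 h against 177.7 at 4 h, 4.60-fold lower, so that the 4 h level without phosphate stood out from the other 3 arrays. AT1G05340, a cysteine-rich membrane protein linked to stress tolerance, was at 67.7 at 100 h against 1440 at 4 h without phosphate (21.3-fold lower) and at 259.4 at 100 h against 984.1 at 4 h with full nutrients (3.79-fold lower). AT2G32210, of the same small protein family, was at 24.7 at 100 h against 269.9 at 4 h without phosphate (10.9-fold lower) and at 105.5 at 100 h against 366.7 at 4 h with full nutrients (3.48-fold lower). AT4G01870, a gene similar to bacterial TolB, was at 50.3 at 100 h against 921.2 at 4 h without phosphate (18.3-fold lower) and at 182.7 at 100 h against 1333 at 4 h with full nutrients (7.29-fold lower). In these 4 genes the 100 h array without phosphate was the lowest of all.

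Hsp70-2, a cytosolic chaperone, was at 11.5 at 100 h against 185.2 at 4 h without phosphate and at 46.0 at 100 h against 158.7 at 4 h with full nutrients on its member probe set. Its other probe set reached at most 10.3 on any array and gives no reading of the fall. AT2G28400, of a family of senescence regulators, was at 65.2 at 100 h against 699.0 at 4 h without phosphate and at 122.8 at 100 h against 636.7 at 4 h with full nutrients. AT2G36950, a heavy metal-associated domain protein, had falls of 5.72-fold without phosphate and 3.53-fold with full nutrients. AT2G46140 (LEA27), of the late embryogenesis abundant proteins that protect dry cells, was dim, below the floor on both 100 h arrays against 35.1 without phosphate and 31.0 with full nutrients at 4 h.

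Metabolic and lipid genes numbered 6. AT4G33150, the LKR/SDH enzyme that starts lysine breakdown, was at 11.4 at 100 h against 195.6 at 4 h without phosphate (17.2-fold lower) and at 22.4 at 100 h against 132.0 at 4 h with full nutrients (5.89-fold lower). AT4G39670, of the glycolipid transfer protein family, was below the floor at 100 h against 179.0 at 4 h without phosphate, at least 24.7-fold lower, and at 12.3 at 100 h against 151.3 at 4 h with full nutrients, 12.3-fold lower. SDH1-1, the flavoprotein subunit of mitochondrial succinate dehydrogenase, had 29.5 at 100 h against 220.7 at 4 h without phosphate and 46.8 at 100 h against 173.6 at 4 h with full nutrients. The phosphate log2 ratio at 4 h lay from 0.08 to 0.57 over the 6, with 0 of them past 2-fold, and 51.8% of all 4478 probe sets bright enough at 4 h were above 0. The remaining ones are GEK1, which removes misloaded amino acids from tRNA, at 12.8 at 100 h against 38.6 at 4 h without phosphate and 8.00 at 100 h against 30.5 at 4 h with full nutrients, the metallo-beta-lactamase family gene AT4G33540 (log2 ratio -2.55 without phosphate and -2.12 with full nutrients) and AT2G28320, a protein with a lipid-binding START domain (-1.60 without phosphate and -1.98 with full nutrients).

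Of the genes without a role given above, AT2G17740, a cysteine- and histidine-rich protein with a C1 domain, was at 9.90 at 100 h against 57.4 at 4 h without phosphate and at 13.2 at 100 h against 152.4 at 4 h with full nutrients. AT2G44370, of the same domain family, AT2G42760, AT2G34357 and AT2G47680 were dim, with no array above 45.8. Another probe set of AT2G34357, not a member, reached at most 1.8 on any array and gives no reading of the fall. AT2G37750 was below the floor at 100 h against 151.2 at 4 h without phosphate and at 42.4 at 100 h against 135.7 at 4 h with full nutrients. AT1G10410 met the rule on 1 probe set, at 26.0 at 100 h against 112.0 at 4 h without phosphate and 34.6 at 100 h against 132.3 at 4 h with full nutrients, while its other 2 probe sets were 1.26-fold and 1.97-fold lower with full nutrients and had log2 ratios of 0.19 and -0.25 without phosphate. The fall of that gene is therefore uncertain.

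**Figure D3:**
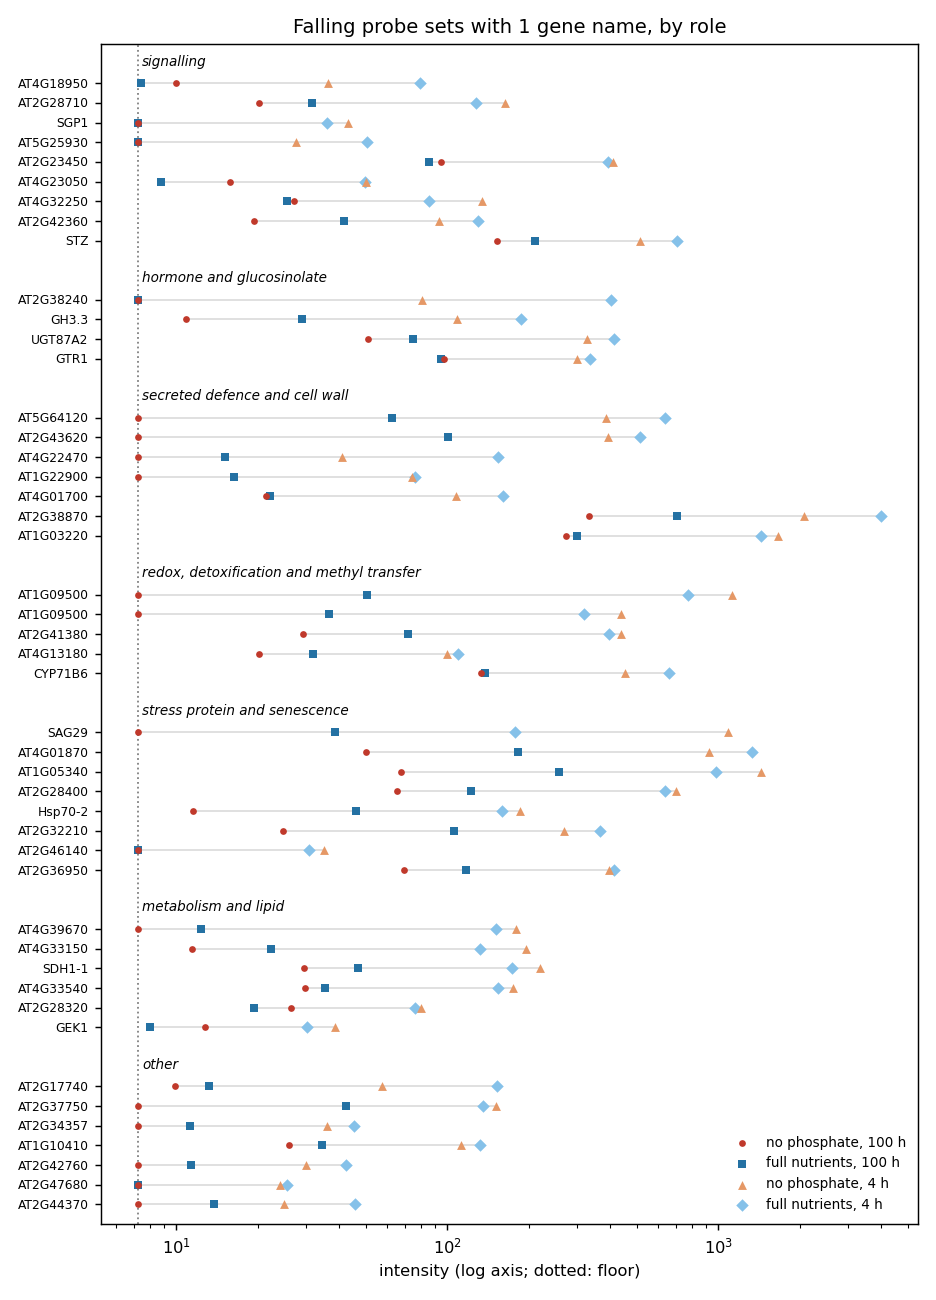
Intensity (log axis) on the 4 arrays for the 46 falling probe sets that name 1 gene, grouped by role and ordered within a group by mean fall. The 100 h arrays lie left of the 4 h arrays of the same solution in every row, and the 100 h points without phosphate lie at or left of those with full nutrients in all 8 rows of the stress and senescence group.

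Probe sets without a gene name held many of the brightest members. Of 13 members at 1000 or more on both 4 h arrays, 11 had no single gene name, as had 118 of all 164 members. Of all 8247 probe sets that are not controls, 4383 are not listed in the annotation and 70 name several genes. Probe set 16150_at was at 160.0 at 100 h against 3992 at 4 h without phosphate and at 945.4 at 100 h against 4526 at 4 h with full nutrients. The largest mean fall of all was that of 12574_at, below the floor at 100 h against 1681 at 4 h without phosphate, at least 232-fold lower, and at 86.3 at 100 h against 1737 at 4 h with full nutrients, 20.1-fold lower. Among members without a name it was followed by 17511_s_at, below the floor at 100 h against 216.1 at 4 h without phosphate and 290.5 with full nutrients. Next was 19019_i_at, below the floor at 100 h against 232.3 at 4 h without phosphate and at 9.90 at 100 h against 225.7 at 4 h with full nutrients. The 118 without a single name had median falls of 7.56-fold without phosphate and 5.16-fold with full nutrients, and the 46 with one had 5.90-fold without phosphate and 4.62-fold with full nutrients.

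Members near the limit were close to probe sets that missed it. Just inside were 13015_s_at, with a smaller fall of 3.009-fold, 15181_at, with 3.010-fold, and GEK1, with 3.016-fold. Just outside were 18591_at, with 2.999-fold, 20479_i_at, with 2.981-fold, and 20686_at, with 2.971-fold.

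The phosphate ratio at each time was not part of the rule, although it uses the same arrays, so its counts are descriptions. At 100 h, 125 members were lower without phosphate than with full nutrients, 21 were higher and 18 were equal, mostly at the floor. The median log2 ratio was -0.55, where all 4756 probe sets whose brightest array was at the level had 0. Of the 103 members bright enough to be called, 43 were 2-fold or more lower, or 41.7%, and 0 were 2-fold or more higher. The background was 5.38% lower and 4.76% higher of 4331 probe sets. Named members among the 43 included AT2G43620 (at least 13.8-fold lower), AT5G64120 (at least 8.65-fold), AT1G09500 (at least 6.95-fold and 5.03-fold), AT2G37750 (at least 5.85-fold), AT2G32210 (4.27-fold), Hsp70-2 (4.00-fold), AT1G05340 (3.83-fold), AT4G01870 (3.63-fold) and GH3.3 (2.68-fold). Scaling each array by its spike-in signal instead, which shifts the overall median log2 ratio at 100 h to 1.06, gave 15 members lower and 18 higher, so both the count and its one-sidedness depend on the scaling. Of the 14 named probe sets called, 7 were then less than 2-fold lower, among them AT1G05340 (log2 ratio -0.87), AT4G01870 (-0.80), Hsp70-2 (-0.94) and GH3.3 (-0.36). GH3.3 also lost its call with the floor at the 45th percentile (-0.75). The counts also rest on the array in doubt: set against the 4 h full-nutrient array in its place, all 164 were lower, a count that the choice of members nearly fixes.

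At 4 h the members were nearer to the rest of the array. The median log2 ratio of no phosphate over full nutrients was -0.15, where all 4756 had 0.01, with 94 members lower and 70 higher. Calls of 2-fold or more were 14 lower, or 8.54%, against a background of 6.65%, and 6 higher, or 3.66%, against 2.21%. These shares are close to the background. AT2G38240 (4.99-fold lower), AT4G22470 (3.76-fold), AT2G17740 (2.66-fold) and AT4G18950 (2.18-fold) were the named genes lower without phosphate, and SAG29 (6.11-fold) the named gene higher. With spike-in scaling AT2G17740 (log2 ratio -0.89) and AT4G18950 (-0.61) were less than 2-fold lower, and the counts were 4 lower and 27 higher.

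**Figure D4:**
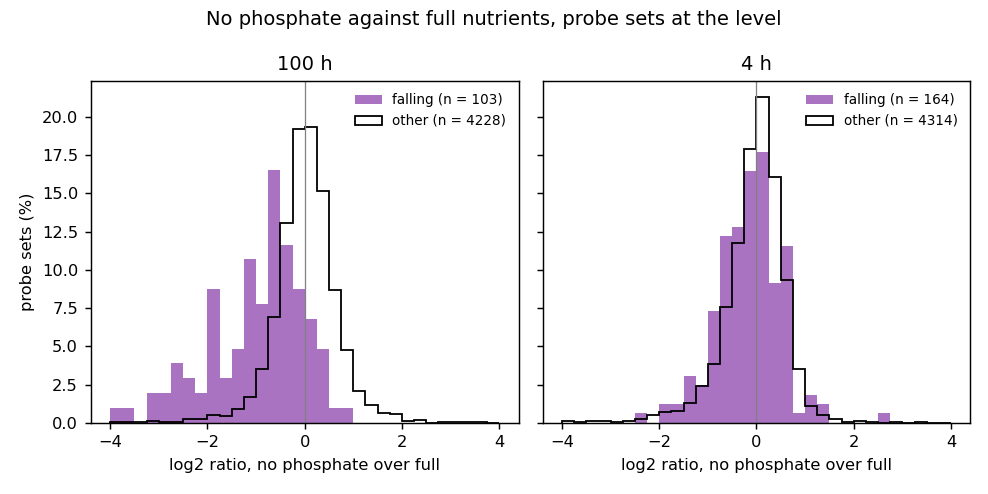
Share of probe sets (%) by log2 ratio of no phosphate over full nutrients at 100 h and at 4 h, among probe sets with a bright enough array, for falling probe sets (filled) and all others (line). At 100 h the falling ones lie to the left, with 43 of 103 at 2-fold or more lower, while at 4 h most lie with the others.

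The fall itself, again from the arrays of the rule, differed between the solutions by 2-fold or more in 61 members. It was deeper without phosphate in 51, or 31.1%, and deeper with full nutrients in 10, or 6.10%. Over all 4756 probe sets the change with time was lower without phosphate by this amount in 10.1% and lower with full nutrients in 13.5%. By role, the fall was deeper without phosphate in 6 of 8 stress and senescence probe sets, 3 of 5 redox and detoxification ones and 3 of 7 secreted ones. It was so in 3 of 6 metabolic ones, 1 of 9 signalling ones, 0 of 4 hormone and glucosinolate ones and 1 of 7 others. The fall was deeper with full nutrients in 1 of 9 signalling ones, 1 of 4 hormone and glucosinolate ones and 0 of the rest. The roles were assigned after the values were seen. With spike-in scaling the counts were 31 deeper without phosphate and 16 deeper with full nutrients.

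The phosphate difference over both times was fitted across all probe sets, on the same 4 arrays that chose the members, so the members' shares and directions in it are descriptions. In limma's additive model, which takes time into account and leaves 1 residual degree of freedom, 0 of the 164 members passed an adjusted p under 0.05, as did 0% of the 4756 probe sets fitted (two-sided, Benjamini-Hochberg, smallest adjusted p = 0.999 in both). An unadjusted p under 0.05 was found for 17 members, or 10.4%, where all probe sets had 1.87%. With spike-in scaling it was found for 9 members, or 5.49%, where all probe sets had 13.3%, and with no filter on level for 11, or 6.71%, where all had 6.51%. The difference of no phosphate minus full nutrients was below 0 in 129 members, with a median of -0.36 on the log2 scale. With spike-in scaling it was below 0 in 45 and above 0 in 119, with a median of 0.29 where all probe sets had 0.79, so the direction depends on the scaling. Among named members the lowest were AT2G43620 (-2.09 ± 0.82) and AT5G64120 (-1.92 ± 0.62; log2, SE, limma adjusted p = 0.999 each).

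Other genes of related pathways were described by lists, matched by locus, symbol or synonym. Genes that the annotation gives by locus alone were missed by the lists built on symbols, members such as AT1G09500, AT4G13180, AT2G28710 and the kinase genes among them, so the counts below hold for the genes matched and not for a whole family. Of 1879 genes with a bright enough array, 6.17% were 2-fold or more lower at 100 h in both solutions and 2.29% were higher in both. The list on abscisic acid and water deficit had 8 such genes, of which the member AT2G46140 and the dehydrin gene LTI30, left out of the members by name, were lower in both, and COR15B, a cold-regulated chloroplast protein, was higher in both (log2 ratio 3.26 without phosphate and 1.20 with full nutrients). The median log2 ratio of the list was -0.50 without phosphate and -0.55 with full nutrients, where all genes had -0.02 without phosphate and -0.05 with full nutrients. Of 11 UDP-glycosyltransferase genes matched by symbol, UGT87A2 was lower in both and 0 were higher, and the median was -0.03 without phosphate and -0.43 with full nutrients. Of 16 genes matched by symbol or synonym as reductases or dehydrogenases, 3 were lower in both and 0 were higher. The 3 were AT4G33150, the glutathione reductase gene GR1 (-1.94 without phosphate and -1.13 with full nutrients) and MSRB9, a methionine sulphoxide reductase gene (-1.58 without phosphate and -1.83 with full nutrients). MSRB9 was at the floor at 100 h in the absence of phosphate. The median of these 16 genes was 0.08 without phosphate and -0.09 with full nutrients, near that of all genes. The 8 photosynthesis genes matched had 0 lower and 1 higher in both (LHB1B2), with a median of 1.21 without phosphate and 0.67 with full nutrients. The remaining lists matched 3 or fewer bright genes each and are not read here.

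By position in the TAIR10.1 annotation, used here for the order of genes, 22 of the 45 member genes lie on chromosome 2, or 48.9%. Of all 3592 named genes on the array, bright enough to be members or not, 37.0% do. Chromosome 5 held 6 of the member genes, or 13.3%, against 4.18% of all. Member shares were lower on chromosomes 1 (13.3% against 22.0%), 3 (2.22% against 4.68%) and 4 (22.2% against 31.8%). AT2G28320 and AT2G28400 were the one pair of member genes within 10 genes of each other.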

How the data were processed

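The authors deposited a linear intensity for every probe set of 4 arrays. How it was summarised is not stated here. Group and time were taken from the treatment and age labels, with 1 array per group. Of 8297 probe sets, 50 controls were left out. The platform annotation gave 1 gene for 3794 probe sets, several for 70 and none for 4383, and 3784 were matched to 3592 loci of RefSeq (TAIR10.1). The floor and level are the means over arrays of the 30th percentile and the median. Calls by size needed 2-fold and the brighter array at the level. limma 3.58.1 (R 4.3.3) was fitted over all 4756 probe sets whose brightest array reached the level, with 4.20 prior degrees of freedom, after a check on simulated data. Its p-values reflect how these arrays differ, not plants. Members and lists were chosen with earlier results of these data known, and roles after seeing which genes were members. Named genes were taken by a rule: every member with 1 gene name, with array values for the 15 largest mean falls above the floor, the 5 brightest, the 3 most different between solutions in each direction, listed genes and genes with several probe sets. Array values were also given for other members chosen after seeing them. Gene lists were matched by locus, symbol and synonym. No promoter or protein sequence was used here, so promoter motifs were not searched. Alternatives covered the floor, scaling, fold, level and the array in doubt.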

Additional observations from a re-analysis of the deposited data

Results flagged for a closer look

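SAG29 had opposite phosphate ratios at the 2 times, with a log2 ratio of no phosphate over full nutrients of -2.41 at 100 h, a bound, and 2.61 at 4 h. Probe set 16173_s_at, which has no gene name here, had -1.65 at 100 h and 1.27 at 4 h. It was at 8.50 without phosphate and 26.7 with full nutrients at 100 h, and at 508.9 without phosphate and 210.4 with full nutrients at 4 h. With 1 array per group the difference between the times was not tested for either.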

How the results depend on the processing

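No paired analysis was possible because each group has 1 array. The 164 members became 127 with the floor at the 45th percentile, 152 after quantile normalization, 147 with spike-in scaling (139 of them shared), 134 with the level doubled and 178 with nothing left out by name. They became 333 at 2-fold, 98 at 4-fold and 276 when the array in doubt was not used (an alternative added after seeing the data, 161 shared). This last alternative keeps the fall without phosphate and asks for no fall within full nutrients. The choice of members therefore nearly fixes the 161, and the count gives no check on the solution of that array. Median log2 ratios lay from -2.81 to -2.47 without phosphate and from -2.41 to -2.18 with full nutrients. Of the 92 time ratios of named members, 92 stayed below 0 under each of the 3 floor and scaling settings. That was nearly fixed by the choice of members, which asked for falls of 3-fold or more. With the higher floor 85 stayed 2-fold lower. Of 113 time and phosphate ratios of named members, 43 moved by more than the SD between probe sets of a gene with the higher floor, 21 with spike-in scaling and 0 after quantile normalization. With the higher floor AT1G09500 without phosphate had -6.01 in place of -7.27, and GEK1 with full nutrients -0.82 in place of -1.93. For phosphate at 4 h, spike-in scaling gave 4 lower and 27 higher, a 1.5-fold call 37 and 18, and a 3-fold call 4 and 1. For phosphate at 100 h, spike-in scaling gave 15 lower and 18 higher, 1.5-fold 61 and 1, and 3-fold 27 and 0. Taking full nutrients at 4 h for the control gave 164 lower. Falls that differed between solutions numbered 31 deeper without phosphate and 16 deeper with full nutrients after spike-in scaling, 78 and 20 at 1.5-fold, 24 and 1 at 3-fold, and 37 and 5 among the 108 members above the floor on both 100 h arrays. limma called 0 members under every setting run, with an unadjusted p under 0.05 in 17 as deposited, 20 with the higher floor, 16 after quantile normalization, 9 with spike-in scaling and 11 with no filter. The planned search of promoters for motifs was not run. Dim 100 h signals limit how far falls can be measured, and no value has a replicate.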
